A study of Rattus norvegicus with 18 samples.

Results

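Intestinal RNA of Sprague-Dawley rats given 10 Gy of X-rays in a single exposure and afterwards Changbing Formula was compared with that of untreated rats. Each group has 6 libraries, together 12 of the 18 libraries of the series. Libraries were assigned by their titles, and all genes of the count table were taken into the comparison. The other 6 libraries come from rats given the same dose without the formula and are used below to place the 2 groups compared. They also entered the main edgeR fit, in the filter, the scaling and the estimate of spread between libraries. All rats are labelled wild type and were kept on a light and dark cycle of 12 h each, and all libraries carry the same batch label. Formula and radiation were always given together in the group compared here, so what each contributed cannot be told apart from these 12 libraries. The labels give neither the bowel segment, sex and age of the rats, the interval after irradiation, the formula's dose, nor the hour at which tissue was taken, and they do not say whether animals were pooled. The free-text descriptions of the formula libraries carry the wording for untreated rats, which goes against their titles and treatment fields.

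Between the groups, 2 of 16593 genes tested passed an adjusted p of 0.05 in edgeR, and they are genes of the circadian clock: Bmal1 rose 4.56-fold and Dbp fell to a level 13.5-fold lower. These are 0.0121% of the genes tested, with 1 gene in each direction (0.00603%). The circadian clock is a transcriptional loop present in most cells, the intestinal epithelium included. BMAL1 pairs with CLOCK and switches on genes that carry E-box sequences, among them the Per and Cry genes, whose proteins shut the pair off again, and Dbp, which codes for a transcription factor that passes the rhythm on to output genes through D-box sequences. A further arm of the loop acts on Bmal1 itself, where ROR proteins activate and REV-ERB proteins repress through a shared element. In peripheral organs of rodents the transcripts of Bmal1 and Dbp are known to peak at opposite times of day, and in the gut the clock also follows meal times. Because the labels give no hour of collection, a difference in hour between the groups and an effect of irradiation with the formula cannot be told apart for these genes.

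The table lists genes by Ensembl ID without symbols, and 0 of them could be matched to a RefSeq symbol, so the names of these 2 IDs were taken as given with the definition of the comparison. ENSRNOG00000014448 (Bmal1) is a forward-strand gene of chromosome 1, from 167331633 to 167430231 in mRatBN7.2. It has 23 exon blocks, and spans 98599 bases, against 98520 for Bmal1 on chromosome 1 of the RefSeq annotation (GRCr8). ENSRNOG00000021027 (Dbp) is a forward-strand gene of the same chromosome, from 96175440 to 96180745. It has 3 exon blocks, and spans 5306 bases, against 4950 for Dbp on the RefSeq chromosome 1. Exons of other annotated genes overlap neither gene, so no annotated neighbour on the opposite strand shares exon sequence with them. The remaining clock genes, and the markers of epithelium, muscle, immune and other cells by which the tissue label could be checked, were not analysed here for want of symbols.

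The promoters are shown because the 2 genes sit on different arms of the loop and moved in opposite directions. Each line gives the 250 bases before the RefSeq start of the gene (GRCr8, forward strand), for Bmal1 at chr1:176766078-176766327 and for Dbp at chr1:105312006-105312255, with capitals where a clock motif was found.
Bmal1: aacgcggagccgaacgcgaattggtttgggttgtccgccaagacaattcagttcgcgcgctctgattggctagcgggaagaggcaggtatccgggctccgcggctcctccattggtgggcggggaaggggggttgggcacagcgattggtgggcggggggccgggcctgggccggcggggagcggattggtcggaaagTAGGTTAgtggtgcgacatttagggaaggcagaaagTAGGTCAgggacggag
Dbp: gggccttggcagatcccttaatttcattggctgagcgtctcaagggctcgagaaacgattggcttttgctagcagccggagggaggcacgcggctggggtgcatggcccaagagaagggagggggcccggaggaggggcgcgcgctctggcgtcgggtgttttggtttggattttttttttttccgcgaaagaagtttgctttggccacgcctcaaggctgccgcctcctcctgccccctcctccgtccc
The motifs searched, on both strands, were the E-box CACGTG, the D-box TTATGNAA and the core TAGGTNA of the ROR and REV-ERB element, whose letters were set after the Bmal1 promoter had been read. The Bmal1 window held 2 matches to this core, TAGGTTA at 52 to 46 bases and TAGGTCA at 16 to 10 bases before the start, and none to the other motifs. Of 33469 RefSeq rat promoters of the same length, 7.55% held at least 1 such core and 0.397% at least 2, while 5.59% held an E-box and 3.28% a D-box. Because the core was set with the Bmal1 promoter known, its shares are no measure of how unusual the Bmal1 matches are. The Dbp window held none of the 3 motifs, which says only that these letters do not occur in it.

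Bmal1 was low in every control library and high in every formula library. In control libraries its level was 12.4 CPM at the lowest, 15.3 at the median and 25.9 at the highest, where CPM is the count scaled to the library total with TMM factors. With irradiation and formula the corresponding values were 57.7, 83.0 and 104 CPM. The groups did not overlap: the lowest formula library, number 3, lay above the highest control library, also number 3. The means were 17.8 ± 5.68 CPM in control and 81.0 ± 15.4 CPM in formula libraries (SD, n = 6). The log2 fold change was 2.19 with an SE of 0.27 and a 95% interval from 1.61 to 2.77 (edgeR quasi-likelihood test, adjusted p = 0.0029).

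Dbp showed the reverse order. Control libraries held 59.9 CPM at the lowest, 122 at the median and 263 at the highest. Formula libraries held 5.38, 11.9 and 14.9 CPM at the same points. The groups again did not overlap, and the control libraries were the more spread, with a highest value 4.39 times the lowest against 2.77 times in formula libraries. The lowest control value belonged to control 2, a library that stood apart from the others across many genes, and the remaining 5 control libraries lay at 106 CPM or above. Mean levels were 141 ± 70.1 CPM in control and 10.4 ± 3.79 CPM in formula libraries (SD, n = 6). The log2 fold change was -3.76 with an SE of 0.47 and a 95% interval from -4.76 to -2.76 (edgeR adjusted p = 0.0029). Raw counts of Dbp lay between 185 and 609 in formula libraries and between 2715 and 8403 in control libraries. Counting error was therefore small beside the differences between libraries. In such bulk tissue, a change in the number of cells that make a transcript and a change in the amount per cell cannot be told apart.

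**Figure D1:**
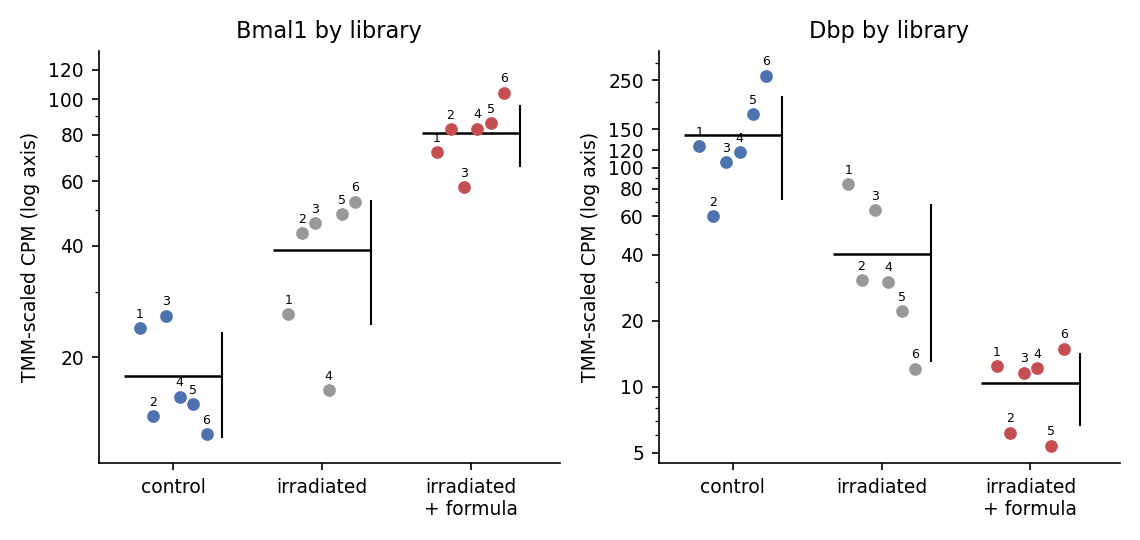
TMM-scaled CPM of Bmal1 (left) and Dbp (right) on log axes in the control, irradiated and irradiated plus formula groups; each point is a library with its replicate number, the horizontal line is the group mean and the vertical line runs 1 SD to either side. Control and formula libraries do not overlap for either gene, at 12.4 to 25.9 against 57.7 to 104 CPM for Bmal1 and 59.9 to 263 against 5.38 to 14.9 CPM for Dbp.

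The medians of the libraries irradiated without the formula lay between those of these groups. Their highest value was 3.25 times the lowest for Bmal1, against 2.09 in control and 1.80 in formula libraries. For Dbp it was 6.97 times, against 4.39 and 2.77. Their SD in CPM was not the largest of the 3 groups for either gene. In these irradiated libraries Bmal1 stood at 16.2 CPM at the lowest, 44.8 at the median and 52.7 at the highest. Of the 6 libraries 1, irradiated 4, fell inside the control range, and the other 5 lay between the control and the formula ranges. Dbp stood at 12.1, 30.4 and 84.2 CPM. Irradiated 1 and 3, at 84.2 and 64.0 CPM, fell inside the control range of Dbp and irradiated 6, at 12.1 CPM, inside the formula range. Neither gene passed the edgeR test in the comparisons that involve this group. Formula against irradiated gave a log2 fold change of 1.06 (SE 0.27, edgeR adjusted p = 0.770) for Bmal1 and -1.96 (SE 0.44, edgeR adjusted p = 0.770) for Dbp. Irradiated against control gave 1.13 (SE 0.27, edgeR adjusted p = 0.998) for Bmal1 and -1.80 (SE 0.44, edgeR adjusted p = 0.998) for Dbp. The 95% intervals of the latter comparison ran from 0.57 to 1.69 for Bmal1 and from -2.72 to -0.88 for Dbp. In formula against irradiated they ran from 0.50 to 1.62 and from -2.89 to -1.03. These intervals are not adjusted for the number of genes. By edgeR p Bmal1 and Dbp ranked 1 and 3 in irradiated against control, and 8 and 5 in formula against irradiated. These comparisons share libraries with the main one and with each other.

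Set per length of exon, the order of the 2 genes within a library was reversed between the groups. In control libraries Dbp averaged 49.4 and Bmal1 5.46 CPM per kb, and Dbp was the higher of the pair in 6 of 6, by 4.64 to 24.1 times. In formula libraries Dbp averaged 3.65 and Bmal1 24.9 CPM per kb, and Bmal1 was the higher in 6 of 6, by 4.38 to 14.1 times. The irradiated libraries were divided, with Dbp higher in 3 and Bmal1 higher in 3.

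As a single value per library, the log2 ratio of the Bmal1 to the Dbp level (in CPM) set the 18 libraries in the order of the 3 groups. It lay between -4.41 and -2.03 in control libraries, between -1.69 and 2.13 in irradiated libraries and between 2.32 and 4.0 in formula libraries. No group overlapped another on this ratio, although neighbouring ranges lay close to each other. The group means were -2.90 ± 0.93, 0.12 ± 1.41 and 3.03 ± 0.68 (SD, n = 6). No test is given for this ratio, because these genes had the lowest p of all genes in the same libraries.

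**Figure D2:**
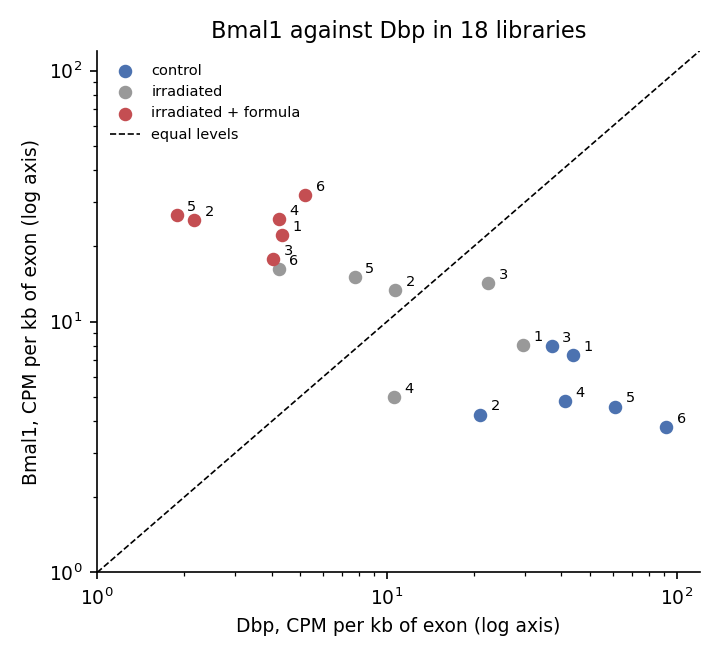
Bmal1 against Dbp in all 18 libraries, both in CPM per kb of exon on log axes, coloured by group and marked with the replicate number; the dashed line marks equal levels. The 6 control libraries lie below the line, the 6 formula libraries above it, and the irradiated libraries lie 3 below and 3 above.

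Beyond these genes, 2 IDs in each direction were followed, those of lowest p whose level averaged 1 CPM or more over the 12 libraries. Their groups did not overlap, as held for 0.832% of all genes tested. All 4 missed the threshold in the main edgeR fit and passed it in both other tools. Adjusted p ran from 1.4e-07 to 0.0016 in DESeq2 and from 0.00054 to 0.015 in limma-voom with quality weights. Of all genes each tool tested, 0.300% passed in DESeq2 and 3.01% in limma-voom. The IDs were picked by edgeR p in the same libraries, so neither the lack of overlap nor these calls are separate support. What these 4 IDs encode was not established here. ENSRNOG00000042717, a reverse-strand gene of chromosome 2 (183419819 to 183423313), held 4.30 CPM at the lowest, 11.6 at the median and 40.3 at the highest in control libraries. In formula libraries it held 0.458, 0.782 and 1.68 CPM. Control 6 was far above the other control libraries. Its fitted log2 fold change was -4.09 with an SE of 0.70 (edgeR adjusted p = 0.090).

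ENSRNOG00000019383, a forward-strand gene of chromosome 7 (113317283 to 113341783), ran from 43.7 over a median of 97.3 to 144 CPM in control and from 19.3 over 25.7 to 37.3 CPM in formula libraries. Its lowest control value was that of control 2, as for Dbp. The fitted log2 fold change was -1.85 with an SE of 0.33 (edgeR adjusted p = 0.111). Without control 2, the library that stood apart, both IDs also passed the edgeR test, ENSRNOG00000042717 with a log2 fold change of -4.28 (edgeR adjusted p = 0.036) and ENSRNOG00000019383 with -1.99 (edgeR adjusted p = 0.033). With any other single control or formula library left out, both missed it, with edgeR adjusted p up to 0.337 (without formula library 4). In the edgeR fit of only the 12 libraries compared both passed, with an edgeR adjusted p of 0.022 each. Without control 2 and irradiated 4 together both passed as well (edgeR adjusted p = 0.019 and 0.015). With library totals in place of TMM the first passed (edgeR adjusted p = 0.046) and the second missed (edgeR adjusted p = 0.076). Among the irradiated libraries, numbers 1 and 3 held the highest levels of both IDs, at 7.99 and 3.80 CPM of the first and 84.0 and 64.5 CPM of the second, and they were also the highest for Dbp. The irradiated group as a whole stood at 2.65 ± 2.87 CPM of ENSRNOG00000042717 and 44.1 ± 24.5 CPM of ENSRNOG00000019383 (SD, n = 6), in both cases between the means of the other groups.

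In the other direction ENSRNOG00000000648, a reverse-strand gene of chromosome 20 (21332147 to 21463122), was evenly expressed within each group. It ran from 63.8 over a median of 67.4 to 90.1 CPM in control and from 96.0 over 104 to 139 CPM in formula libraries. The fitted log2 fold change was 0.60 with an SE of 0.13 (edgeR adjusted p = 0.318). ENSRNOG00000011668, a forward-strand gene of chromosome 17 (12280484 to 12295858), varied far more, from 1.25 over 4.72 to 10.0 CPM in control and from 14.4 over 29.1 to 56.3 CPM in formula libraries. Its fitted log2 fold change was 2.43 with an SE of 0.52 (edgeR adjusted p = 0.318). Without control 2 both higher IDs still missed the threshold, ENSRNOG00000000648 with edgeR adjusted p = 0.142 and ENSRNOG00000011668 with edgeR adjusted p = 0.172. Irradiated 1, the highest of its group for Dbp and both lower IDs, was also the highest for ENSRNOG00000011668, at 28.3 CPM. The same library held 92.7 CPM of ENSRNOG00000000648, above the control range. Irradiated 3 held 7.59 CPM of the former and 72.1 CPM of the latter, inside both control ranges. The irradiated group averaged 84.8 CPM of ENSRNOG00000000648 and 17.4 CPM of ENSRNOG00000011668. The exons of none of the 4 IDs overlap those of another annotated gene.

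**Figure D3:**
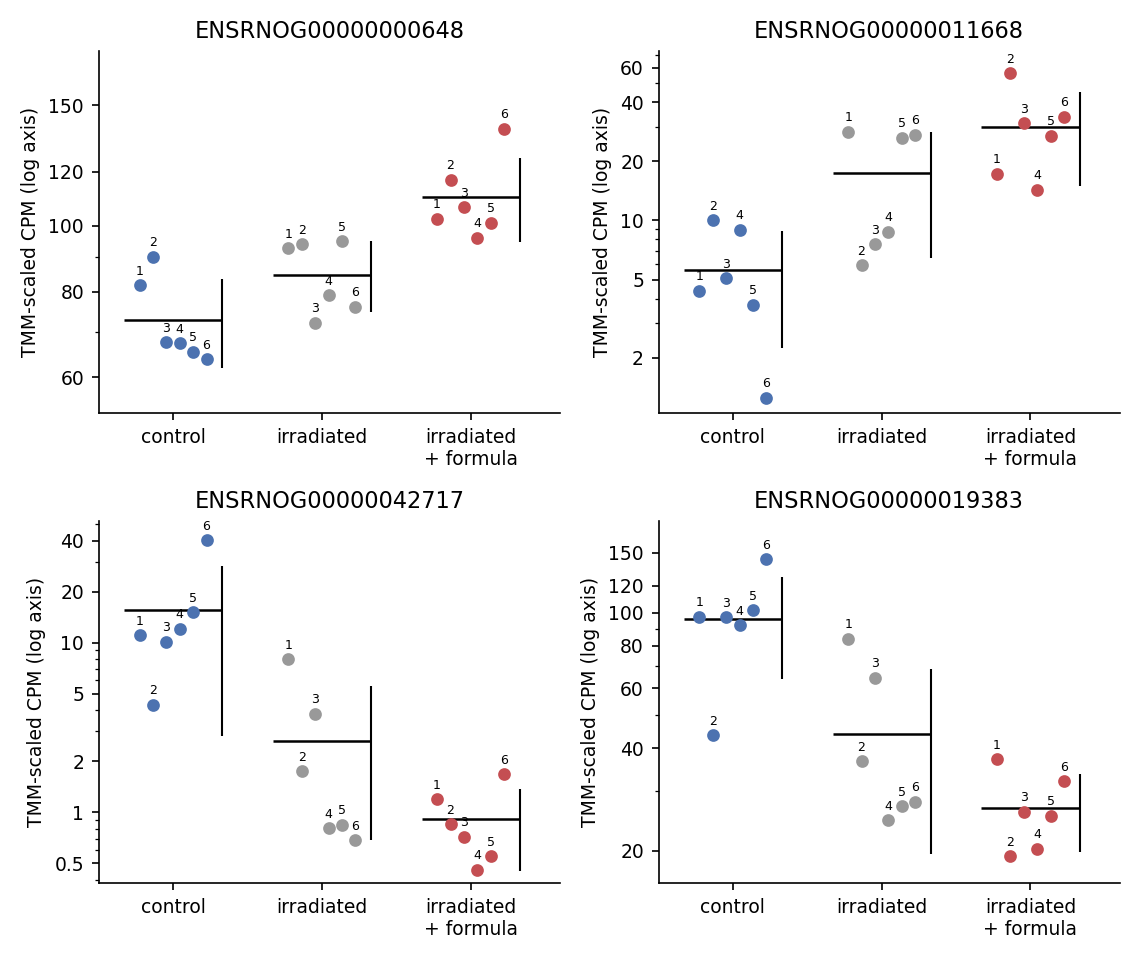
TMM-scaled CPM on log axes of the 2 IDs of lowest p in each direction after Bmal1 and Dbp, among those averaging 1 CPM or more, in the 3 groups; points are libraries with their replicate numbers, the horizontal line is the group mean and the vertical line 1 SD to either side, ending at the lowest library where the SD exceeds the mean. The formula libraries lie outside the control range in 6 of 6 cases for each ID, and the irradiated libraries lie inside the control range in 1 to 3 of 6 cases.

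Across all genes, 138 (0.832%) did not overlap between the groups, 81 higher (0.488%) and 57 lower (0.344%) with the formula. Before adjustment 948 genes (5.71%) had a p under 0.05, 406 of them higher (2.45%) and 542 lower (3.27%). DESeq2 called 47 of 15648 genes (0.300%), 22 higher (0.141%) and 25 lower (0.160%), and limma-voom with quality weights called 499 (3.01%), 194 higher (1.17%) and 305 lower (1.84%). Of the 47 DESeq2 genes, 31 were also among those of limma-voom, 24 did not overlap between the groups and 2 were the genes called by edgeR. Their log2 fold changes had a median size of 1.93, in a range from 0.38 to 9.06. With library totals in place of TMM the edgeR calls became 1 higher and 2 lower. In an edgeR fit of only the 12 libraries compared the calls became 2 higher and 4 lower.

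Bmal1 and Dbp did not have the largest differences. By size alone Dbp ranked 57th among the fitted lower genes and Bmal1 25th among the fitted higher genes, of 14293 that averaged 1 CPM or more. A fitted difference over 4-fold was held by 224 genes, 187 lower and 37 higher with the formula. Of the 187 lower genes 4 did not overlap between the groups, and of the 37 higher genes 2 did not. Over all genes tested, which include those below 1 CPM, 0.344% were lower and 0.488% higher without overlap. An unadjusted edgeR p below 0.05 was reached by 84 of the 187 lower and 28 of the 37 higher genes. Over all genes tested it was reached by 3.27% lower and 2.45% higher. Size and p come from the same fit, so these counts are not separate support. In 176 of the 187 a single library held over 50% of the control total, a share that was not computed for all genes. That library was the highest by definition, and over the 187 genes the highest was control 2 in 157, control 4 in 19, control 5 in 8 and control 6 in 3. Without control 2 the lower genes over 4-fold numbered 40, and without formula library 4 they numbered 436. The 37 higher genes became 21 without formula library 2, 58 without control 4 and 51 without control 2.

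**Figure D4:**
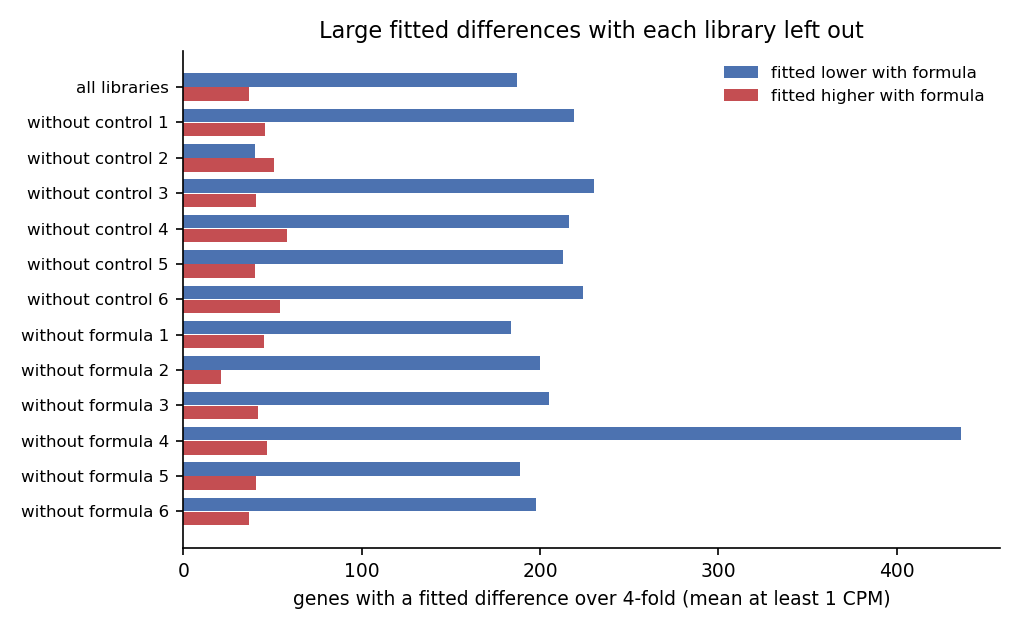
Number of genes with a fitted difference over 4-fold between formula and control libraries and an average of 1 CPM or more, lower and higher, with all libraries and with each of the 12 left out in turn. The lower genes number 187 with all libraries, 40 without control 2 and 436 without formula library 4.

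Precision differed with the level of a gene. At a mean of 10 to below 100 CPM, where both Bmal1 and Dbp lie, the median SE of a log2 fold change was 0.242 over 7779 genes, and for 69.7% of them the 95% interval stayed inside 2-fold up or down. At 1 to below 10 CPM the median SE was 0.445 and that share 30.6% of 4806 genes, and below 1 CPM they were 0.663 and 5.48% of 2300 genes. Over all genes tested the interval stayed inside 2-fold for 48.8%. The median log2 fold change of all genes was -0.07.

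**Figure D5:**
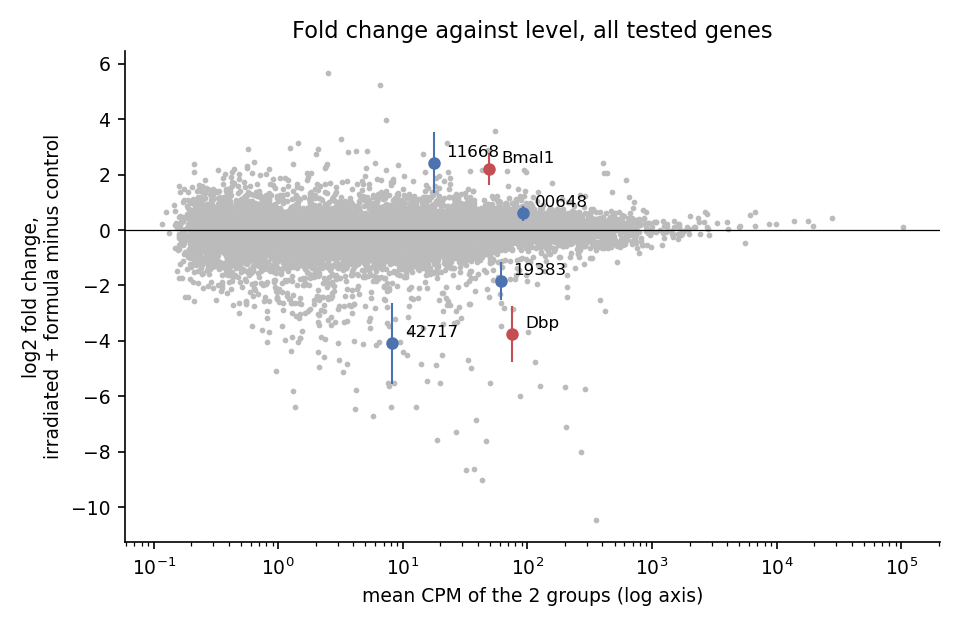
Log2 fold change of formula over control libraries for each tested gene against its mean CPM in the 2 groups (log axis). Intervals of 95% are drawn for Bmal1 and Dbp (red, called by edgeR) and for the 4 further IDs (blue, marked by their last digits). These 4 IDs were not called in the main edgeR fit but were called by DESeq2 and limma-voom. Many genes have larger fitted differences than Dbp, at -3.76, or Bmal1, at 2.19, and did not pass the edgeR test.

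Library totals were between 35240791 and 48216607 counts in the control group and between 33598572 and 42952563 in the formula group. The mitochondrial chromosome took 19.5% ± 5.34 of counts in control and 22.4% ± 3.30 in formula libraries (SD, n = 6). Of its 17 tested genes 16 had a higher fitted value with the formula, with a median log2 fold change of 0.33. An unadjusted p below 0.05 in edgeR was reached by 0 of them. How far control 2 set this difference was not tested. On chromosome 18, the highest of the others by median, 214 of 420 tested genes were fitted higher. Over chromosomes 1 to 20 and X the median log2 fold change lay between -0.13, on chromosome 7, and 0.0066, on chromosome 18. On the first principal component of the 12 libraries (39.1% of the variance) control 2 stood at 202 and the other control libraries between -33.5 and 10.4. Formula libraries stood between -44.6 and 47.9, the highest being number 4.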

How the data were processed

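The deposited values are raw counts per gene, made by the authors with featureCounts 2.1.1 with the Ensembl release 110 annotation of mRatBN7.2, per the file headers. The submitters' processing notes also name FastQC, fastp, STAR and SAMtools, without versions. In the header's command no option for strand or for counting read pairs was set. Even numbers made up 66.9% to 72.2% of counts from 1 to 39 in the 12 libraries, so most fragments were counted by both reads and counting error is larger than the counts imply.

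Counts were tested in R 4.3.3 with edgeR 4.0.16 (quasi-likelihood test, 1 model of all 18 libraries without covariates, filterByExpr, TMM), with p adjusted by Benjamini-Hochberg over 16593 genes. SEs were derived from the F statistic and are approximate. Alternatives were DESeq2 1.42.0, limma 3.58.1 (voom with quality weights), other scalings and filters, a robust fit, a fit of 12 libraries, a replicate term and libraries left out. In simulated counts for this comparison (16402 genes), 31.3% of 67 genes changed 2-fold, 70.1% of 67 changed 4-fold and 80.3% of 66 changed 8-fold were recovered. All changed genes were present at once, and counts were drawn gene by gene, without libraries that stand apart across many genes. The shares may therefore overstate recovery in the real data.

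The rule for named genes asked, where IDs have no symbols, for the 2 genes of the comparison's definition and at most 2 IDs in each direction. Those of lowest edgeR p with a mean of 1 CPM or more were taken. The 38 gene lists written could not be applied. The comparison, genes and lists were chosen with earlier results of these data known. The p-values measure the spread between libraries, and the labels do not say outright that each is a separate rat. No 2 of the 12 libraries agreed within sampling noise (lowest median chi-square 8.01 over 66 pairs). In total 0 columns of values were left unused.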

Additional observations from a re-analysis of the deposited data

Results flagged for a closer look

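Of 20 checks for a library far from the rest of its group, over the groups compared, 3 met the criterion, where chance gives about 1. Control 2 stood at 202 on the first principal component of the 12 libraries, 81.4% of the group's range away from its nearest neighbour. Irradiated plus formula 4 stood at 47.9 on the same component, by 75.8% of its group's range. Both are measures of the same component and are not independent of each other. Control 6 held 40.3 CPM of ENSRNOG00000042717, by 69.9% of the range of the control libraries. It also had the highest Dbp level, 263 CPM, and the lowest Bmal1 level, 12.4 CPM, of all 12 libraries compared.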

How the results depend on the processing

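Dbp stayed past the threshold in 23 of 23 alternatives, with log2 fold changes from -3.91 to -3.48 and adjusted p up to 0.040. Bmal1 did so in 22, from 1.93 to 2.33. With the replicate block, which gave 1 gene (0 higher and 1 lower), Bmal1 had a log2 fold change of 2.20, an SE of 0.30 and an adjusted p of 0.061 in edgeR. The labels do not pair the rats by number, 3 of 6 same-numbered pairs of control and formula libraries had a correlation of deviations over 0.1 (range -0.32 to 0.45), and the best match of a library carried its own number in 5 of 12 cases. Against 2 genes (1 higher, 1 lower), DESeq2 gave 47 (22 and 25), limma-voom with quality weights 499 (194 and 305), the fit of only the 12 libraries 6 (2 and 4), and the fit without control 2 and irradiated 4 gave 7 (3 and 4); library totals only gave 2 lower. The cause was not tested. With each of the 12 libraries left out in turn there were 2 to 5 genes, of which 1 was higher each time and 1 to 4 were lower, and 5 was without control 2. The 4 further IDs kept their direction in every alternative run. The biological coefficient of variation was 60.8%, and genes below 1 CPM were the least resolved.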
